A study of Drosophila melanogaster with 266 samples.

Results

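PAM_4 is the study's name for captures with a driver line made for a sparse population of dopamine neurons of the fly brain, and 2 of the 266 libraries of the series (195 of which passed the study's quality control and were modeled) come from it. The values below go partly against that name, with neuronal transcripts lower and cuticle and epithelial ones higher than in other captures of the same kind. PAM_4 therefore stands here for the driver and not for 1 cell type. Its members are the libraries of the driver PAM_4_d1 that entered the deposited table of modeled libraries, replicates 1 and 2. They were set against the 2 libraries each of PAM_1_d1 and PAM_3_d1, and the genes higher in PAM_4 were then placed by their levels in muscle (Muscles_App and Muscles_Head, 2 libraries each) and in glia (Glia_Eg, 6 libraries; Glia_Mg, 2; Glia_Psg, 4). Each library holds nuclear RNA of Drosophila melanogaster captured by TAPIN, in which nuclei carrying a GFP-tagged nuclear membrane protein (UNC84-2XGFP) are pulled out of homogenized frozen tissue by consecutive rounds of antibody and bead capture.

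The PAM and glia drivers carried the reporter 10XUAS_UNC84_attP2 and the muscle driver carried 5XUAS_UNC84_attP18. All flies were adults, 4 to 7 days old, kept on an even light and dark cycle and decapitated after freezing. By the paper's account, flies for TAPIN libraries were not sorted by sex. PAM_4_d1 is the split-GAL4 line MB312B, which joins the R58E02 and R10G03 enhancer fragments and was made for PAM neurons of the mushroom body γ4 compartment. PAM_1_d1 is MB109B (β′2a), and PAM_3_d1 is MB213B (β1 and β2). Each PAM group is thus 1 driver line from pooled heads, and cells outside the brain in which a driver is active would be captured as well. The muscle driver (BL-1767, the 24B insertion in the gene how) is, by the study's own description, also active in some cells that are not muscle. The labels give the tissue of Muscles_App as head, whereas its name and the protocol point to appendages.

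Dopamine neurons of the PAM cluster (protocerebral anterior medial) innervate the mushroom body and signal reward during associative learning. They make dopamine from tyrosine through tyrosine hydroxylase and dopa decarboxylase, load it into vesicles with the vesicular monoamine transporter Vmat, and take it back up through the transporter DAT. Insect epidermis runs the same synthesis for another end: dopamine derivatives tan the cuticle, which is a matrix of chitin and cuticular proteins laid down by epidermal, tracheal and sensory support cells.

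The values are TPM, a share of all transcripts after correction for transcript length, and they carry no read depth, which is unknown here. PAM_4 replicates 1 and 2 had 9526 and 10666 coding genes detected of 13931, against 9199 to 9636 in the PAM_1 and PAM_3 libraries. The spike-in RNA made up 4089 and 5512 TPM of the PAM_4 libraries and 13779 to 30899 TPM of the other 4, and the captured tag's own transcript read 5242 and 9097 TPM against 6172 to 8728 TPM. Across the 7199 tested genes the log2 values of the 2 PAM_4 libraries correlated at r = 0.89, those of PAM_4 with PAM_1 or PAM_3 libraries at 0.56 to 0.59, and those of PAM_1 with PAM_3 libraries at 0.77 to 0.78. These correlations run across genes, which are not independent replicates. The paper calls its replicates biological, but the labels do not say whether they were separate fly collections. The p-values below measure only the spread between libraries.

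Dopamine genes were read in the PAM_4 libraries, with the transporters Vmat and DAT lower, ple and Pu higher, and Ddc without a call. Cuticle tanning also uses ple and Ddc, so their levels cannot be assigned to dopamine neurons alone. Vmat (2R, 13513132 to 13534251, BDGP6.54) read 3333 and 3166 TPM in PAM_4, 7148 and 7316 TPM in PAM_1, and 8686 and 8657 TPM in PAM_3. Both PAM_4 libraries lay below the other 4, and the log2 fold change was -1.29 (SE 0.15, limma adjusted p = 0.000504). PAM_4 still ranked 4 of 77 cell types for Vmat, and the means of the 5 muscle and glia types were between 12.9 and 50.7 TPM. DAT, the dopamine transporter, read 571 and 921 TPM in PAM_4 against 1708 to 2852 TPM in the other 4 libraries (log2 fold change -1.51, SE 0.27, limma adjusted p = 0.00413). In bulk libraries such as these, fewer nuclei of a type and less RNA per nucleus cannot be told apart, and since TPM are shares, a rise of some genes lowers the others.

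The order was the opposite for ple, which encodes tyrosine hydroxylase, the rate-limiting enzyme of dopamine synthesis. It read 1679 and 1989 TPM in PAM_4, 454 and 391 TPM in PAM_1, and 485 and 555 TPM in PAM_3. The groups did not overlap (log2 fold change 1.96, SE 0.18, limma adjusted p = 0.000203), and PAM_4 had the highest mean ple level of all 77 cell types, ahead of Mi15 at 683 TPM. Pu, the GTP cyclohydrolase that makes the enzyme's cofactor, read 178 and 261 TPM against 57.5 to 99.4 TPM (log2 fold change 1.62, limma adjusted p = 0.00853), a call that was lost without PAM_4 replicate 2. Ddc, dopa decarboxylase, had no call. Its 287 and 397 TPM in PAM_4 lay between the 686 and 673 TPM of PAM_1 and the 173 and 197 TPM of PAM_3, and it was lower than in PAM_1 (log2 fold change -1.01, limma adjusted p = 0.0193) and higher than in PAM_3 (0.87, limma adjusted p = 0.0353).

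Of the 5 dopamine genes, 2 were thus higher, 2 lower and 1 without a call. Of 6 tested genes of other transmitters, Tbh and VGAT were lower in PAM_4 and none was higher. Among all tested genes, 11.0% were lower and 13.5% higher. Gad1 read 10.6 and 23.4 TPM, VGlut 48.4 and 35.6 TPM, and ChAT 11.4 and 7.56 TPM in PAM_4, each marked off by the authors' mixture model.

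**Figure D1:**
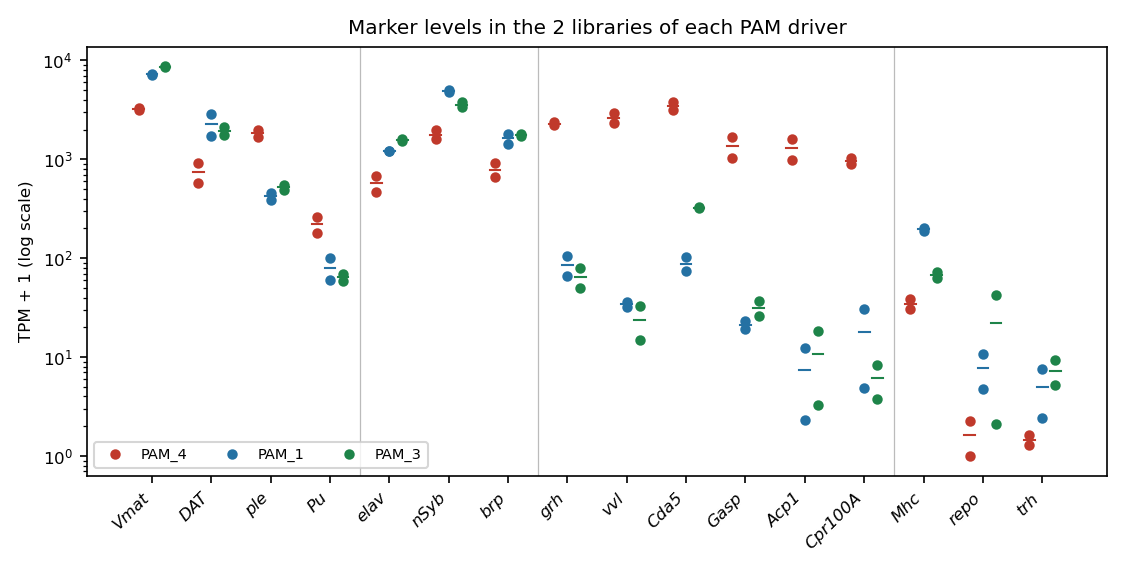
TPM + 1 (log scale) of 16 genes in replicates 1 and 2 of PAM_4 (red), PAM_1 (blue) and PAM_3 (green). Points are libraries and short bars are means. Vertical lines separate dopamine genes, neuronal genes, members of the epithelial, tracheal and cuticle lists, and other cell markers. The PAM_4 points lie below the others for Vmat, DAT, elav, nSyb and brp and above them for ple, grh, vvl, Cda5, Gasp, Acp1 and Cpr100A.

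Neuronal transcripts were lower in PAM_4 as a group. Of 14 pan-neuronal genes, 13 were lower and 1 was higher, whereas 11.0% of all 7199 tested genes (793) were lower and 13.5% (975) higher. The median log2 fold change of the list was -1.27, beside 0.06 for all tested genes. elav, an RNA-binding protein of neurons, read 683 and 467 TPM in PAM_4, 1225 and 1211 TPM in PAM_1, and 1612 and 1543 TPM in PAM_3. nSyb, the neuronal synaptobrevin of synaptic vesicles, read 1968 and 1589 TPM, 4771 and 5019 TPM, and 3759 and 3399 TPM in the same order. For both genes every PAM_4 library lay below every other one, and the log2 fold changes were -1.29 and -1.24 (limma adjusted p = 0.00184 and 0.000984). The active zone scaffold brp, the sodium channel para and the calcium channel cac fell by 1.12, 1.37 and 1.00 on the log2 scale. The exception was Syx1A, the plasma membrane syntaxin used for secretion in many cell types, at 3268 and 2123 TPM in PAM_4 against 1263 to 1755 TPM (log2 fold change 0.84, SE 0.20, limma adjusted p = 0.0177). That call was lost when PAM_4 replicate 1 or either PAM_3 library was left out. Summed over the 14 genes, the level was 12112 to 17011 TPM in PAM_4, 26481 to 31293 TPM in PAM_1 and PAM_3, and 3281 to 10636 TPM in the muscle libraries.

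Receptors and signalling genes known from PAM neurons were lower by more. Of 7 tested, 6 were lower and none higher, with a median log2 fold change of -2.51. Among all tested genes, 11.0% were lower and 13.5% higher. Dop2R, the D2-like receptor by which dopamine neurons sense their own release, read 106 and 131 TPM in PAM_4 against 628 to 789 TPM in the other 4 libraries (log2 fold change -2.52, SE 0.20, limma adjusted p = 0.000115). Dop1R1, the D1-like receptor, read 79.6 and 117 TPM against 295 to 1319 TPM. NPFR, the receptor for neuropeptide F, was at 0.30 and 0.17 TPM in PAM_4 and at 23.1 to 51.2 TPM in the others. Rdl, the GABA-A receptor subunit, kept 1686 and 1161 TPM in PAM_4 but was also below the 3321 to 5504 TPM of the others. All 4 receptors separated the groups without overlap.

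The largest falls were of genes nearly absent from PAM_4. Ca-alpha1T, the T-type calcium channel subunit, read 21.9 and 21.9 TPM in PAM_4, 2164 and 2407 TPM in PAM_1, and 1319 and 1411 TPM in PAM_3 (log2 fold change -6.27, SE 0.18, limma adjusted p = 2.05e-06). The transcription factor gene rn, rotund, read 0.56 and 4.47 TPM against 477 to 759 TPM (log2 fold change -7.69). CG1688 and CG31814 fell by 6.50 and 6.21 on the same scale. CG15537 and CG5906 were listed at 0 in both PAM_4 libraries and read 34.2 to 358 TPM and 51.0 to 126 TPM in the others.

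Across all genes, 975 were higher and 793 lower in PAM_4 than in both other drivers, with a limma adjusted p under 0.05 and no overlap of libraries. On adjusted p alone the numbers were 993 and 832. The higher genes had a median log2 fold change of 3.30 and the lower ones of -1.90. Taken separately, 1617 genes (22.5%) differed between PAM_4 and PAM_1 and 1564 (21.7%) between PAM_4 and PAM_3; these share the PAM_4 libraries. Between PAM_1 and PAM_3, 154 genes (2.14%) differed. These pairwise numbers depended on single libraries. Without PAM_4 replicate 1 or 2, 837 and 993 genes differed from PAM_1 and 873 and 927 from PAM_3. Without PAM_3 replicate 1 or 2, 854 and 851 differed from PAM_3. The 154 became 68 and 49 without PAM_1 replicate 1 or 2, 30 and 27 without PAM_3 replicate 1 or 2, 90 with the replicate number as a block, 75 without a filter on low values, and 1307 when all 149 TAPIN libraries were fitted together. Without PAM_4 replicate 1 or 2, the number of higher genes was 386 and 371, with the remaining library taken to vary like those of the other groups, and 377 and 358 of the 975 were among them. In each of these fits 281 of the 975 were not tested, because a gene high in PAM_4 alone then had only 1 library at the limit of 10 TPM. These 281 include CG16978, ckd, rhi, rpr, CG42269, lab, Tsp42Ed, bnl, tup, Indy and Cpr97Eb, described below. In those fits 40.3% and 35.0% of the called genes were higher, in place of 55.2%. Of the 975 genes, 853 agreed within 2-fold between the PAM_4 libraries, 105 were over 2-fold higher in replicate 2 and 17 in replicate 1. Of all 7199 tested genes, 4830 agreed within 2-fold, 2009 were over 2-fold higher in replicate 2 and 360 in replicate 1. The calls favour genes with close replicates, so agreement among the 975 was partly set by their choice.

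**Figure D2:**
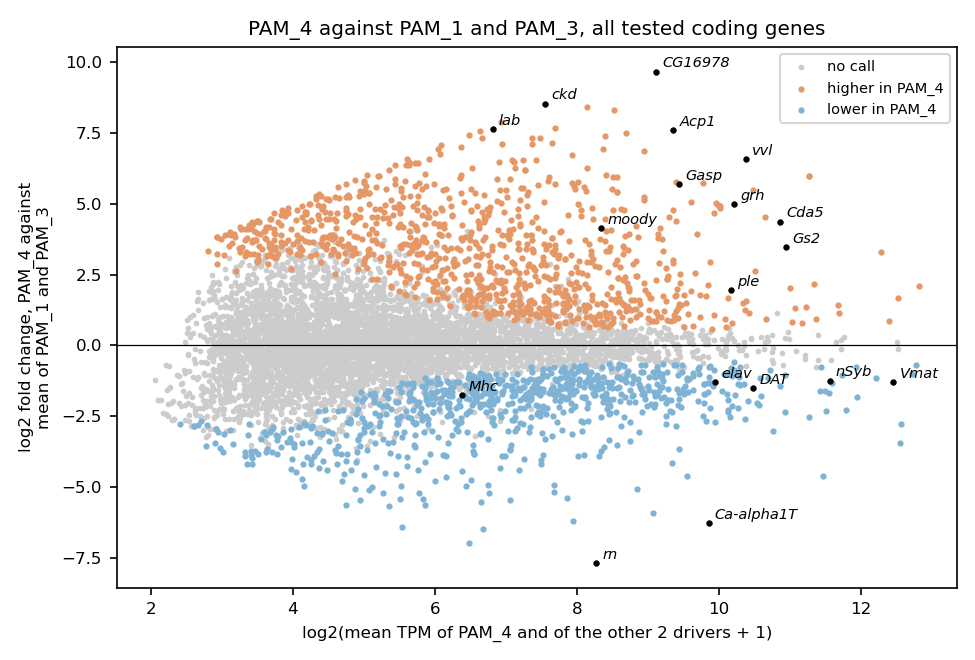
Log2 fold change of PAM_4 against the mean of PAM_1 and PAM_3 (y axis) by mean level (x axis, log2 scale) for the 7199 tested genes. The 975 higher genes (orange) reach further from 0 than the 793 lower ones (blue), with medians of 3.30 and -1.90, and named genes are marked.

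The authors' on and off calls were modeled from TPM that include these same libraries. They describe the called genes and are not separate evidence. Of the 975 higher genes, 903 were on in PAM_4 (probability of 0.8 or more), 504 of them off in both PAM_1 and PAM_3 (0.2 or less), and 233 were on in all 3 drivers. Of the 793 lower genes, 222 were off in PAM_4 and on in both others, and 420 were on in all 3.

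The chitin deacetylase gene Cda5 (2L, 25402 to 65404) read 3823 and 3160 TPM in PAM_4, 101 and 72.5 TPM in PAM_1, and 322 and 327 TPM in PAM_3. The PAM_4 libraries were far above the other 4 (log2 fold change 4.37, SE 0.21, limma adjusted p = 1.49e-05). Gasp (3R, 6088799 to 6100887), a chitin-binding protein of the tracheal lining and other cuticle, read 1700 and 1023 TPM in PAM_4 against 18.2 and 22.1 TPM in PAM_1 and 25.1 and 35.9 TPM in PAM_3 (log2 fold change 5.69, SE 0.34, limma adjusted p = 3.27e-05). Acp1 (2L, 7740562 to 7741537), an adult cuticle protein, read 989 and 1616 TPM in PAM_4 against 11.5 and 1.34 TPM in PAM_1 and 17.4 and 2.31 TPM in PAM_3 (log2 fold change 7.61, SE 0.88, limma adjusted p = 0.000554). None of these groups overlapped. PAM_4 had the highest mean of the 77 cell types for Cda5 and Gasp and the next highest for Acp1, after Muscles_App at 1801 TPM.

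They were part of a wider set. Of 159 cuticle and chitin genes, 37 were tested and the remaining 122 were left out for low values. In PAM_4, 19 were higher and 1 (Cpr11B) lower, beside 13.5% higher and 11.0% lower of all tested genes. The median log2 fold change was 2.77, beside 0.06 for all tested genes. Cda4, Cht7, Cpr11A, Cpr47Ee, Cpr97Eb, Idgf1, Idgf2 and knk passed the limit of 10 TPM only through the PAM_4 libraries. They were not tested when PAM_4 replicate 1 or 2 was left out. In those fits 27 members were tested, with median log2 fold changes of 2.45 and 1.93. Cpr100A, a structural cuticle protein with a chitin-binding domain, read 906 and 1029 TPM in PAM_4 against 2.80 to 29.6 TPM in the other 4 libraries (log2 fold change 6.87, limma adjusted p = 0.000447). Cpr49Ae read 609 and 927 TPM against 11.6 to 90.2 TPM, and Cpr97Eb 301 and 522 TPM against 0 to 2.50 TPM. Gfat1, the enzyme that starts the hexosamine pathway to the chitin precursor, read 526 and 611 TPM against 12.1 to 37.6 TPM (log2 fold change 4.84, SE 0.44, limma adjusted p = 0.000201). The chitin deacetylases serp and verm, which shape the tracheal and epidermal matrix, read 206 and 212 TPM and 212 and 193 TPM in PAM_4, with no other library above 17.4 TPM. obst-A, a chitin-binding protein that organizes the matrix, read 274 and 273 TPM against 1.91 to 29.6 TPM. The chitinase genes Cht6 and Cht7, the chitinase-like Idgf1, Idgf2 and Idgf4, and knk, which protects chitin during assembly, were also higher. The calls of Idgf1 and Idgf2 were lost at a pseudocount of 0.1 TPM and without a filter on low values, and that of Idgf2 also without PAM_3 replicate 2. The summed level of the 159 genes was 10812 and 11268 TPM in PAM_4 and 722 to 1378 TPM in PAM_1 and PAM_3. It was 7834 to 9892 TPM in Muscles_App and 4557 to 5211 TPM in Muscles_Head.

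The list was not raised throughout. TwdlT (2.86 and 10.1 TPM in PAM_4 against 8.25 to 65.9 TPM) and Idgf6 (90.3 and 151 TPM against 66.7 to 347 TPM) had no call, and Cpr11B read 23.3 and 55.5 TPM against 84.5 to 167 TPM, a call that was lost without PAM_4 replicate 1 or PAM_3 replicate 2. In the list of 15 tanning genes, 6 were tested. Of these, ple, Dat and e were higher and none lower, beside 13.5% higher and 11.0% lower of all tested genes. Dat, the N-acetyltransferase that acetylates dopamine and serotonin and is a separate gene from the transporter DAT, read 232 and 263 TPM against 9.80 to 19.2 TPM (log2 fold change 4.07, SE 0.50, limma adjusted p = 0.000712). e, ebony, which joins beta-alanine to dopamine, was low even in PAM_4, at 12.3 and 29.5 TPM, and its limma adjusted p was 0.0447. That call was lost under most alternatives, among them the replicate block and quantile normalization.

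Epithelial genes were higher by count and by level. Of 21 tested, 12 were higher in PAM_4 and none lower, beside 13.5% higher and 11.0% lower of all tested genes. The median log2 fold change was 2.08, beside 0.06 for all tested genes. Without PAM_4 replicate 1 or 2 the list median was 2.29 and 1.88. The call of nrv1 was lost without either PAM_4 library and that of crb without PAM_4 replicate 2. grh (2R, 17801132 to 17842820), the Grainyhead transcription factor of epidermal barrier formation and wound repair, read 2380 and 2208 TPM in PAM_4, 104 and 64.4 TPM in PAM_1, and 79.4 and 49.1 TPM in PAM_3. No library overlapped (log2 fold change 4.98, SE 0.29, limma adjusted p = 3.04e-05), and PAM_4 had the highest mean grh level of the 77 cell types, followed by Muscles_App at 1463 TPM. ovo, whose product shapes epidermal trichomes, read 284 and 279 TPM against 34.7 to 42.5 TPM. Among junction genes, shg (E-cadherin) read 109 and 199 TPM against 7.43 to 15.4 TPM (a call lost without PAM_4 replicate 2), baz (the polarity protein Par-3) 273 and 321 TPM against 14.0 to 52.4 TPM, and the septate junction protein gene Lac 620 and 907 TPM against 32.9 to 91.7 TPM. The apical matrix genes dpy and pio were higher too (log2 fold change 2.08 and 2.36). The 9 members without a call included aPKC (755 and 534 TPM against 581 to 815 TPM) and Atpalpha, which neurons also use.

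Tracheal genes were mixed. Of 9 tested, Gasp, vvl, bnl, pyd and dysf were higher and tyn lower, beside 13.5% higher and 11.0% lower of all tested genes. Without PAM_4 replicate 1 or 2, bnl and dysf were not tested. The median log2 fold change of 2.96 became 0.41 and 1.88 over 7 genes in those fits. The call of dysf was also lost at a pseudocount of 0.1 TPM, without a filter and without PAM_3 replicate 1. vvl (3L, 6790158 to 6794941), a POU-domain transcription factor of tracheal and epidermal development, read 2922 and 2324 TPM in PAM_4, 35.5 and 31.4 TPM in PAM_1, and 31.6 and 13.8 TPM in PAM_3 (log2 fold change 6.57, SE 0.35, limma adjusted p = 2.12e-05). bnl, the FGF ligand to which tracheal cells grow, read 683 and 624 TPM against 1.78 to 8.36 TPM. The defining factors of tracheal cells themselves were near 0: trh read 0.30 and 0.63 TPM and btl, the FGF receptor, 0 and 0.43 TPM in PAM_4. Both genes were below the limit of 10 TPM and were not tested. In PAM_1 and PAM_3, trh read 1.43 to 8.41 TPM and btl 0 to 0.98 TPM.

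**Figure D3:**
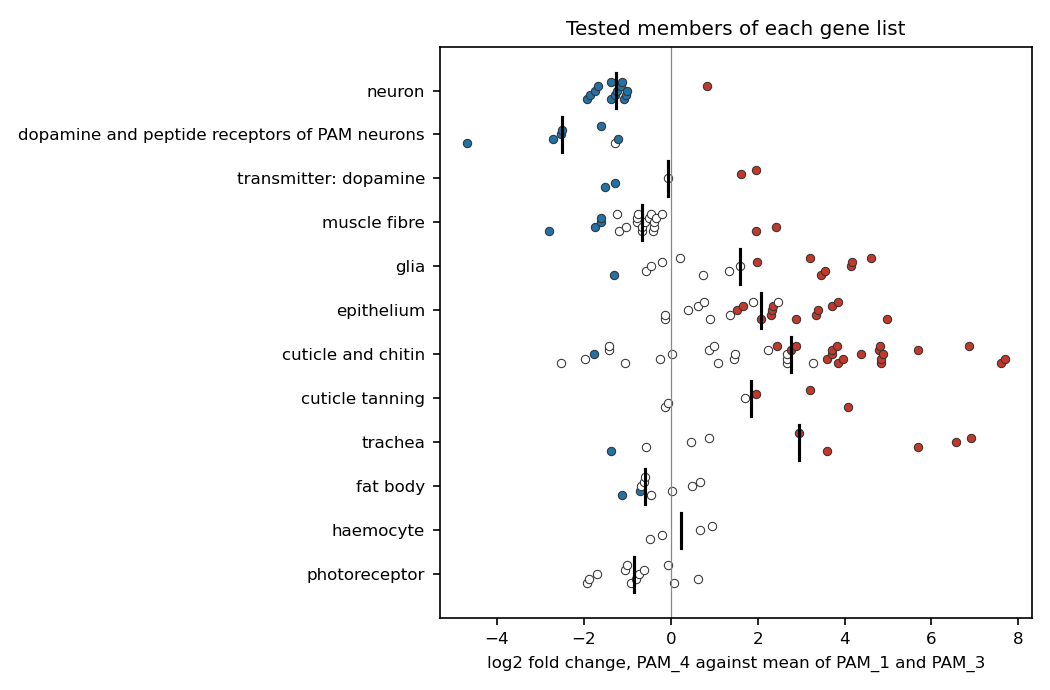
Log2 fold change of PAM_4 against the mean of PAM_1 and PAM_3 (x axis) for the tested members of 12 gene lists (y axis). Points are genes, filled red where higher, blue where lower and white where no call was made; black bars are list medians. Medians were -1.27 for neuron, 2.08 for epithelium, 2.77 for cuticle and chitin, 2.96 for trachea, and -0.66 for muscle fibre.

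Muscle fibre genes had calls in both directions. Among all tested genes, 13.5% were higher and 11.0% lower. Of 22 tested, 2 were higher in PAM_4, 4 lower and 16 without a call. Mhc, the myosin heavy chain, read 37.3 and 29.9 TPM in PAM_4, 190 and 203 TPM in PAM_1, and 62.7 and 72.2 TPM in PAM_3 (log2 fold change -1.75, SE 0.31, limma adjusted p = 0.00436), and its Muscles_App mean was 846 TPM. The list summed to 2935 and 3194 TPM in PAM_4, 3220 to 4446 TPM in PAM_1 and PAM_3, and 11389 to 21457 TPM in the muscle libraries. The lower ones were Mhc, Mf, Tm2 and bt. The call of bt was lost with the replicate block and when any single library was left out, and that of Tm2 without PAM_4 replicate 2. The higher ones were how and Strn-Mlck, of which Strn-Mlck lost its call without either PAM_4 library. how, an RNA-binding protein of muscle and tendon cells that also hosts the muscle driver's insertion, read 824 and 553 TPM against 96.1 to 189 TPM. The muscle factor Mef2 had no call, at 284 and 411 TPM against 301 to 474 TPM.

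Among all tested genes, 13.5% were higher and 11.0% lower. Of 15 glial genes tested, 7 (Eaat1, Gs2, Indy, Inx2, e, loco and moody) were higher and 1 (Eaat2) lower. Without PAM_4 replicate 1 or 2 the higher ones were 4 and 3, and the call of Eaat2 was lost without PAM_4 replicate 1. Gs2, glutamine synthetase, read 3773 and 3413 TPM in PAM_4 against 252 to 551 TPM in the other 4 libraries (log2 fold change 3.46, SE 0.27, limma adjusted p = 0.000112). moody, a G-protein-coupled receptor of the glial blood-brain barrier, read 744 and 484 TPM against 23.6 to 45.8 TPM (log2 fold change 4.16, SE 0.40, limma adjusted p = 0.000245). Eaat1, the glial glutamate transporter, read 223 and 229 TPM against 8.37 to 24.7 TPM, and the citrate transporter Indy 144 and 144 TPM against 2.92 to 9.68 TPM. repo, the factor that defines nearly all glia, read 0 and 1.25 TPM in PAM_4, below the limit for testing, and its means were 81.7 to 636 TPM in the 3 glia types. Obp44a, with a mean of 6323 TPM in Glia_Mg, read 9.72 and 13.4 TPM in PAM_4 and had no call, and wrapper was listed at 0 in both PAM_4 libraries. The list summed to 5275 and 5586 TPM in PAM_4 and 833 to 1279 TPM in PAM_1 and PAM_3. What part any of these cell types had in the PAM_4 libraries was not tested.

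The largest rises were of genes nearly silent in the other drivers, and several are known from epidermis or from tissues other than brain. CG16978 read 1033 and 1176 TPM in PAM_4, was listed at 0 in both PAM_1 libraries and read 2.36 and 0 TPM in PAM_3. ckd, rhi, rpr and CG42269 were listed at 0 in all 4 other libraries, so no fold is given. They read 346 and 397 TPM, 196 and 288 TPM, 249 and 146 TPM, and 141 and 212 TPM in PAM_4. rpr, reaper, is an activator of cell death, and rhi, Rhino, belongs to the piRNA pathway of the germline. lab, the Hox gene labial of the embryonic head, read 205 and 241 TPM in PAM_4, and no other library of the comparison exceeded 0.60 TPM. Its next highest cell type mean was 7.39 TPM, in Dm12. CG7214, which lies beside Acp1 on 2L (7743682 to 7744839), read 894 and 567 TPM against 0 to 14.8 TPM. The tetraspanin gene Tsp42Ed read 481 and 647 TPM against 0 to 2.96 TPM. Among factors tested for cell identity, tup (67.8 and 110 TPM against 0.13 to 2.37 TPM) and Hnf4 (169 and 220 TPM against 9.03 to 23.4 TPM) were higher. So were grh and ovo, which are also in the epithelial list, and vvl, which is also in the tracheal list. Of 10 tested none was lower, beside 13.5% higher and 11.0% lower of all tested genes. tup was not tested when either PAM_4 library was left out.

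Placed by level, the genes higher in PAM_4 lay nearer to the muscle captures than to glia. A gene counted as present in muscle, or in glia, where the mean of at least 1 cell type there reached 0.5 times the PAM_4 mean. By that limit 291 of the 975 genes (29.9%) were in muscle only, 48 (4.92%) in glia only, 478 (49.0%) in both and 158 (16.2%) in neither. Of the 4187 other tested genes that reached 10 TPM in both PAM_4 libraries, the shares were 8.74%, 3.65%, 81.9% and 5.66%. The PAM_4 libraries chose these genes, so the shares are a description without a test, and a gene high in PAM_4 is less likely to reach 0.5 times its level elsewhere. Muscles_App reached the limit for 715 of the 975 genes (73.3%) and Muscles_Head for 612 (62.8%), against 391, 432 and 410 (40.1% to 44.3%) for Glia_Eg, Glia_Mg and Glia_Psg. Of the other 4187 genes, 80.3% and 86.1% reached it in the muscle types and 75.9% to 80.4% in the glia types.

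**Figure D4:**
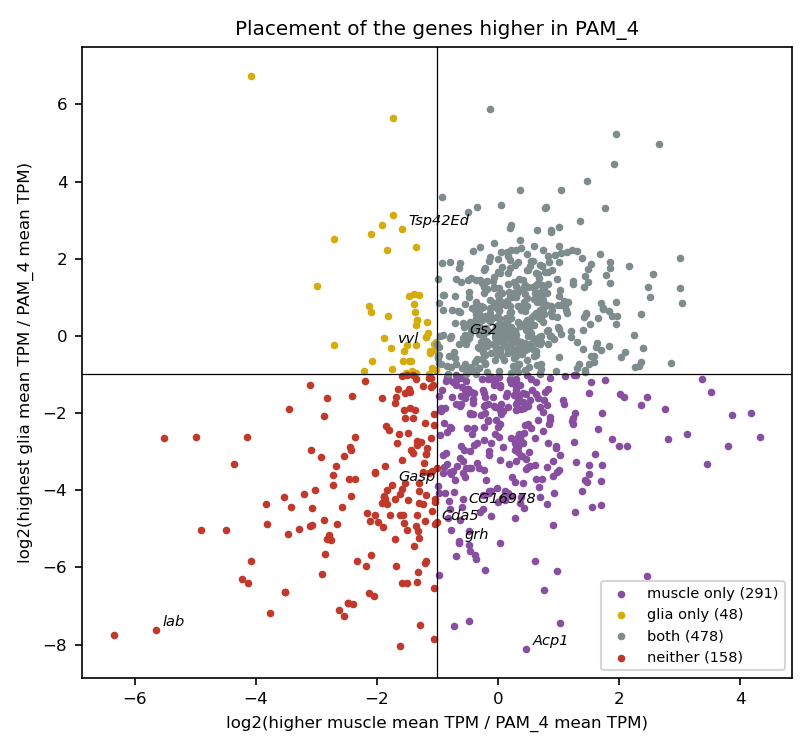
For each of the 975 genes higher in PAM_4, the higher muscle mean (x axis) and the highest glia mean (y axis) over the PAM_4 mean, on a log2 scale. Lines mark 0.5 times the PAM_4 mean, and colours give the 4 classes: muscle only (291), glia only (48), both (478) and neither (158). Acp1, grh and CG16978 lie in muscle only, vvl and Tsp42Ed in glia only, Gs2 in both, and lab, Gasp and Cda5 in neither.

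The muscle-only genes of highest level were CG11073, Syx1A, grh and CG8740. CG11073 read 3193 and 2402 TPM in PAM_4 and 51.2 to 67.8 TPM in the other PAM libraries; its means were 1419 and 882 TPM in Muscles_App and Muscles_Head and 8.06 to 38.4 TPM in glia. CG8740 read 2145 and 1787 TPM in PAM_4, 38.0 to 106 TPM in the other PAM libraries, and 2494 and 1495 TPM on average in the muscle types. Of the 19 cuticle and chitin genes higher in PAM_4, 9 were in muscle only, 1 in glia only, 2 in both and 7 in neither, and 11 of them were highest in PAM_4 among the 77 cell types. The epithelial genes had 8 in muscle only and 4 in both. The cuticle and chitin list summed to 7834 to 9892 TPM in Muscles_App and 4557 to 5211 TPM in Muscles_Head. The muscle fibre list summed to 2935 and 3194 TPM in PAM_4, little below the 3220 to 3265 TPM of PAM_3, and to 4168 to 4446 TPM in PAM_1. Its higher members in PAM_4 were how and Strn-Mlck. What part cells other than muscle had in the muscle captures was not tested.

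The glia-only genes of highest level were corto, vvl, pyd and CG31523. corto, a chromatin factor, read 4169 and 2417 TPM in PAM_4 against 579 to 970 TPM, and its glia means were 2530 to 4004 TPM. vvl was at 2125 TPM on average in Glia_Psg, 33.2 and 38.3 TPM in Glia_Eg and Glia_Mg, and 772 and 499 TPM in the muscle types, so it missed the muscle limit while standing far above the other PAM drivers there. In both classes of tissue, the leading genes were scyl, Pdp1, ps and Glut4EF. scyl, an inhibitor of TOR signalling, read 13402 and 9470 TPM in PAM_4, 1592 and 1585 TPM in PAM_1, and 4353 and 4212 TPM in PAM_3. Pdp1, a bZIP factor of the circadian clock, read 11754 and 6343 TPM against 697 to 1008 TPM.

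Among the genes in neither, hth, a homeodomain cofactor of Hox proteins, read 8313 and 5594 TPM against 3129 to 4579 TPM, with a limma adjusted p of 0.0157 that was lost without PAM_4 replicate 1, PAM_1 replicate 1 or either PAM_3 library. fax read 5763 and 3601 TPM against 995 to 2730 TPM. CG10570 and CG42502 occupy the same span (2L, 18808694 to 18811252) and had identical values in every library, 3916 and 5815 TPM in PAM_4 against 47.9 to 99.7 TPM, so the files cannot say which of them was measured. Just below the muscle limit stood Cda5 (0.49 times the PAM_4 mean) and serp (0.48 times), and just above it CG11073 (0.51 times) and Cpr47Ee (0.51 times).

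PAM_4 had the highest mean of the 77 cell types for 271 of its 975 higher genes (27.8%). Of all 5162 tested genes that reached 10 TPM in both PAM_4 libraries, it was highest for 306 (5.93%), a number that includes those 271. The 975 were chosen for being high in these PAM_4 libraries, so their high ranks were partly set by that choice. For the 271, the next highest type was Muscles_App for 120, Muscles_Head for 23, NPF for 19, Glia_Mg for 17 and Glia_Psg for 11. Over all 7199 tested genes, the mean TPM of PAM_4, on a log2 scale, was most like that of Muscles_Head (Pearson r = 0.82 across genes) and Muscles_App (0.77). Glia_Eg and Dm1 followed (both 0.69). PAM_3 stood 11th at 0.62. PAM_1 and PAM_3 correlated at 0.83 with each other, and Muscles_App and Muscles_Head at 0.84. These are descriptions over means of the few libraries of each cell type, with no test.

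The other PAM drivers of the series, marked suboptimal by the study and left out of the comparisons above, gave no such profile. They are PAM_2, PAM_5, PAM_6, PAM_7, PAM_8 and PAM_9, 2 libraries each, and PAM_2, PAM_5, PAM_6 and PAM_7 share the R58E02 fragment with PAM_4. In these 12 libraries grh read 9.93 to 79.2 TPM, vvl 19.3 to 64.8 TPM, Gasp 0 to 73.0 TPM, Acp1 0 to 14.7 TPM and Cpr100A 0 to 51.1 TPM, all below the lower PAM_4 library. Vmat read 4945 to 11109 TPM there, above both PAM_4 libraries, and ple 246 to 897 TPM, below both. The share of the 975 genes that reached 0.5 times the PAM_4 mean was 8.31% to 11.8% in these drivers, 6.15% in PAM_1 and 6.77% in PAM_3, whereas 62.8% to 81.0% of the other genes did so in the suboptimal drivers.

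**Figure D5:**
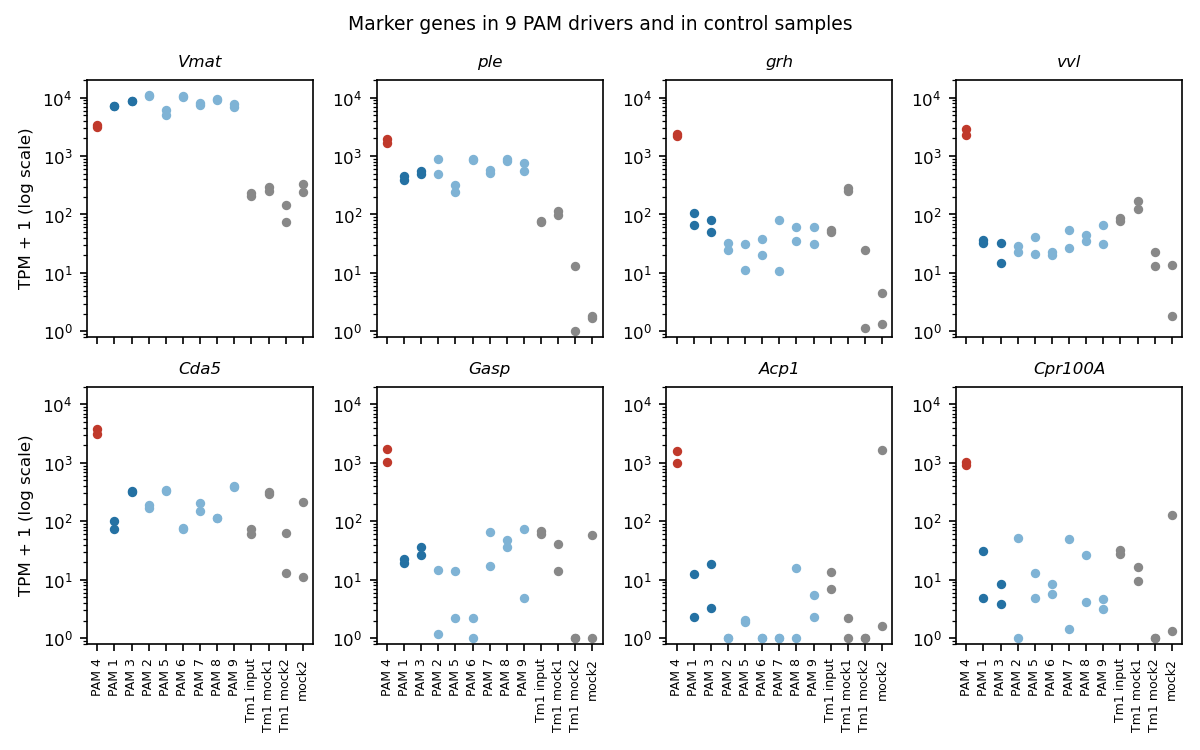
TPM + 1 (log scale) of 8 genes in both replicates of 9 PAM drivers and of control captures. PAM_4 is red, PAM_1 and PAM_3 dark blue, the 6 suboptimal drivers light blue and controls grey. For grh, vvl, Cda5, Gasp and Cpr100A both PAM_4 points lie above all other points. For Acp1 a single mock2 library, in which few genes were detected, reaches the PAM_4 level.

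Controls gave the background of the captures, with a limit for mock2 and Tm1_d1_mock2. In those libraries spike-in RNA made up 439671 to 770895 TPM, and 3809 to 4724 coding genes were detected. Spike-ins were removed and the rest rescaled, so their TPM rest on little fly RNA and single values are uncertain. In the 2 whole-head input libraries grh read 54.2 and 48.4 TPM, Cda5 72.5 and 60.8 TPM, Gasp 67.8 and 60.0 TPM, and Acp1 12.5 and 5.99 TPM, so all 4 were lower in whole head than in PAM_4. In the libraries labelled Tm1_d1_mock1 grh read 249 and 281 TPM and Cda5 317 and 291 TPM. Of the 975 genes, 419 reached 0.5 times the PAM_4 mean in Tm1_d1_mock1, 166 (17.0%) in the input, 149 (15.3%) in mock2 and 130 (13.3%) in Tm1_d1_mock2. Of the other tested genes, 84.5%, 63.9%, 28.3% and 31.5% reached that level in the same order of groups. The means of both PAM_1 and PAM_3 were exceeded for 801 of the 975 genes (82.2%) in Tm1_d1_mock1, 573 (58.8%) in the input, 225 (23.1%) in mock2 and 234 (24.0%) in Tm1_d1_mock2, and for 42.8%, 25.7%, 15.4% and 17.5% of the other tested genes. The 975 were chosen for being low in PAM_1 and PAM_3, so these shares are a description without a test. Acp1 read 1646 TPM in replicate 2 of mock2 and 0.60 TPM in replicate 1. Fat body transcripts, which are abundant in whole head, summed to 56109 to 83797 TPM in the input but to 5887 and 7907 TPM in PAM_4, below the 9390 to 15629 TPM of PAM_1 and PAM_3. Of the 9 tested members of that list, Yp1 and apolpp were lower in PAM_4 and none was higher, beside 11.0% lower and 13.5% higher of all tested genes. Both calls were lost without PAM_4 replicate 1, and that of Yp1 also without PAM_1 replicate 1 or either PAM_3 library, with the replicate block, quantile normalization, no filter, a pseudocount of 0.1 TPM or all TAPIN libraries fitted together. The paper names Yp1 among known sex-specific genes, and these flies were not sorted by sex. What part the sex of the flies or captured background had in the PAM_4 libraries was not tested beyond these values.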

How the data were processed

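Nuclear RNA of TAPIN captures was amplified, sequenced as short reads with ERCC spike-ins, and quantified by the authors with kallisto 0.43.1 on the Ensembl transcriptome (dm6 per the submitters' notes). The deposited TPM (length-corrected shares of all transcripts) had spike-in, tag and ribosomal transcripts removed and were rescaled to the same total, and 13931 coding genes were used. The deposited probability of being on, a fraction from 0 to 1, comes from the authors' mixture model over 195 libraries (on at 0.8 or more, off at 0.2 or less). The authors' mean TPM per cell type differed from means computed here by at most 0.0083 TPM. Whether counting used strand is not given in the sources used here, so overlapping genes are uncertain.

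From these values log2(TPM + 1) was fitted with limma 3.58.1 (R 4.3.3; lmFit, contrasts.fit, eBayes with trend) over the 6 PAM_4, PAM_1 and PAM_3 libraries, for genes at 10 TPM or more in at least 2 of them. PAM_4 was set against the mean of PAM_1 and PAM_3 (two-sided, Benjamini-Hochberg over 7199 genes, threshold 0.05), and a call of higher or lower also needed no overlap of libraries. Fold changes on this scale understate changes of low genes. Placement, ranks and lists were described without tests. Coordinates are from Ensembl release 115 on BDGP6.54 (the same assembly as dm6), matched by gene ID for 13833 genes. The fit was checked on simulated data. Named genes were the 12 largest rises, the 6 largest falls, the 4 highest genes of each placement class, the markers Vmat, Gasp, Cda5 and Acp1, and members of the gene lists. Members and lists were chosen with earlier results of these data known. Lists share members, among them Gasp, ple, e, grh, ovo and vvl, so they are not separate evidence. Alternatives were the pseudocount, the filter, quantile normalization, a fit on 149 TAPIN libraries, a replicate block, each library left out, and other placement limits.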

Additional observations from a re-analysis of the deposited data

Results flagged for a closer look

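Cda5 stood above the controls in 2 of the suboptimal PAM drivers, which entered no comparison. Its mean was 336 TPM in PAM_5_d1 (324 and 347 TPM) and 391 TPM in PAM_9_d1 (402 and 380 TPM). Every input and mock library read 317 TPM or less. PAM_4 read 3823 and 3160 TPM, and PAM_3, which passed, 322 and 327 TPM. Gasp and Acp1 did not stand above every control in both libraries of any of these drivers. Vmat did in all 6, with means of 10983 TPM in PAM_2_d1, 5559 TPM in PAM_5_d1, 10417 TPM in PAM_6_d1, 7781 TPM in PAM_7_d1, 9382 TPM in PAM_8_d1 and 7279 TPM in PAM_9_d1, while input and mock libraries read 73.8 to 334 TPM. No group of 4 to 10 samples held a library far from the rest among the 8 groups examined.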

How the results depend on the processing

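Fitting 149 TAPIN libraries together gave 1676 higher and 1210 lower genes, 3496 against PAM_1, 3283 against PAM_3 and 1307 between PAM_1 and PAM_3. Leaving out 1 library in turn gave 371 to 1078 higher and 571 to 761 lower genes, 837 to 1439 against PAM_1, 851 to 1684 against PAM_3 and 27 to 170 between PAM_1 and PAM_3. The lowest of these were without PAM_4 replicate 2, PAM_4 replicate 1, PAM_4 replicate 1, PAM_3 replicate 2 and PAM_3 replicate 2. Without a filter on low values, 75 genes differed between PAM_1 and PAM_3. Quantile normalization moved the median log2 fold change of all tested genes from 0.06 to -0.13 and gave 951 higher and 1030 lower genes (48.0% of calls higher, in place of 55.2%).

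The replicate numbers did not pair the samples: correlations of deviations between same-numbered libraries were -0.11, -0.01 and 0.01. With the replicate number as a block, 894 genes were higher, 702 lower, 1391 differed from PAM_1, 1376 from PAM_3, and 90 between PAM_1 and PAM_3.

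Placement moved with its limit. At 0.25 times the PAM_4 mean, 14 genes were in glia only and 61 in neither. At the whole PAM_4 mean, 117 were in glia only, 232 in both and 375 in neither. By the authors' on state, 68 were in neither. TPM hold no depth and each group has 2 libraries, so low genes are the least certain. Beyond the genes that leave the test with a PAM_4 library, the causes of these shifts were not tested.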

Other observations

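Other cell type lists had no call or few tested genes, beside 13.5% higher and 11.0% lower of all 7199 tested genes. Of 12 photoreceptor genes tested, none was called (median log2 fold change -0.85), and the 15 listed summed to 3294 and 3312 TPM in PAM_4, 2790 to 5385 TPM in PAM_1 and PAM_3, and 46701 to 52977 TPM in the input. Of 4 haemocyte, 3 oenocyte and lipid, and 3 pigment cell genes tested, none was called either. In the list of sensory support cell genes, Pdp1 and Cyp6a20 were higher among 5 tested, the call of Cyp6a20 being lost without either PAM_4 library, PAM_1 replicate 2 or the filter; Obp56d, an odorant-binding protein, read 0 and 5.58 TPM in PAM_4. Of 6 Kenyon cell genes tested, toy was higher (140 and 149 TPM against 43.7 to 83.1 TPM) and mub lower. The call of toy was lost without either PAM_4 library, either PAM_1 library or PAM_3 replicate 2, and also with the replicate block, quantile normalization or no filter. That of mub was lost without either PAM_3 library. No DNA replication gene passed the filter, and the 13 listed summed to 23.6 and 34.1 TPM in PAM_4.

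Genes with a call were longer than tested genes in general. The median gene span was 6148 bp for the 963 higher genes with coordinates, 10964 bp for the 788 lower ones and 3406 bp for 7142 tested genes. Chromosome 4 held 0.83% of the higher, 2.54% of the lower and 1.06% of the tested genes. The transcript of the driver's GAL4 DNA-binding part read 266 and 284 TPM in PAM_4 and 109 to 125 TPM in PAM_1 and PAM_3.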
